A study of Homo sapiens with 4 samples.

Results

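Interferon-stimulated effector genes encode the proteins through which cells act on viral RNA, viral entry and budding, and infected cells. They were described here through 51 genes chosen by name, all of which had a row among the 35767 rows of the table. The cells came from SAS, a human line established from squamous cell carcinoma of the tongue, and each of 2 groups held 2 libraries. The first group, labelled siNAT10, received an siRNA against NAT10, which encodes the acetyltransferase that places acetylcytidine on RNA. Its genotype label names a NAT10 knockdown for replicate 1 and a NAT11 knockdown for replicate 2, and NAT11 is another name of NAA40. The second group, labelled siControl, received a control siRNA and has WT as its genotype. Neither siRNA dose nor duration is stated in the sources used here, and the replicates are called biological with no culture named. A p-value therefore reflects how far these particular libraries spread, in the gene itself and across all genes tested, and that spread may be technical. By its title, the study asks how NAT10 acts on growth of head and neck tumour cells through acetylation of DDIT4 mRNA.

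Type I and type III interferons bind receptors that activate the kinases JAK1 and TYK2. The kinases phosphorylate STAT proteins, STAT2 among them, which join IRF9 in a complex that binds the interferon-stimulated response element (ISRE) in promoters. Some effector genes are also switched on directly by IRF3 and IRF1 at related sequences, without secreted interferon. Epithelial cells use both routes, and their effectors include proteins that bind RNA caps and ends, nucleases, membrane proteins, GTPases and the ubiquitin-like modifier ISG15.

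The libraries held between 30794757 and 36341785 counts. NAT10 was at 252 and 248 CPM in the libraries labelled siNAT10, against 240.2 and 231 CPM in the siControl libraries, a log2 fold change of 0.09 ± 0.06 (siNAT10 minus siControl, standard error, edgeR quasi-likelihood adjusted p = 0.293). NAA40 was at 18.6 and 18.2 CPM under siNAT10 labels and 22.1 and 18.8 CPM in siControl (log2 fold change -0.15 ± 0.10, adjusted p = 0.255). Neither mRNA passed the test, so a lower NAT10 mRNA was not detected in the libraries named for its siRNA, and all directions follow the labels as given. Levels are in CPM, the count per 1e+06 counts of a library size scaled by a TMM factor, and values with ± are log2 fold changes with their standard error (n = 2 libraries per group). Of 9 epithelial markers with a row, 8 were tested, 3 of them lower and 1 higher, against 20.7% and 19.7% of all genes tested. KRT8, KRT18 and KRT17 were the most abundant, with 2004, 641 and 564 CPM on average in the libraries labelled siNAT10 and 1666, 675 and 843 CPM in siControl. The squamous basal markers KRT5 and TP63 stayed under 1 CPM in each library. KRT14 (-1.09, adjusted p = 2.59e-04), KRT17 (-0.58, adjusted p = 7.94e-07) and EPCAM (-0.99, adjusted p = 4.04e-05) were lower, KRT14 reaching at most 4.12 CPM and EPCAM 8.34 CPM. KRT8 was higher (0.27, adjusted p = 0.00158), and its row overlaps that of KRT18. The part of these markers in the results was not tested.

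Interferon-stimulated effector genes were lower in the libraries labelled siNAT10, 26 of the 48 tested by at least 2-fold. Together the 51 genes summed to 1039 and 1046 CPM in the libraries labelled siNAT10, against 2150.0 and 2166 CPM in the siControl libraries. Counts sufficed for a test of 48 genes, and 38 of these were called lower and 3 higher at an adjusted p under 0.05 (edgeR quasi-likelihood test, Benjamini-Hochberg over all 20098 genes tested), with 7 not called. Over all genes tested, 20.7% were called lower and 19.7% higher, or 40.4% in either direction, against 41 of these 48. With libraries scaled by their totals alone, 5601 of all genes were lower and 2689 higher, in place of 4169 and 3951, and of the 48 effector genes 40 were lower and 2 higher. At least 2-fold lower were 26 of the 48, against 5.62% of all genes tested, and none was at least 2-fold higher (nor at an unadjusted p under 0.05 in edgeR, nor in DESeq2 or limma-voom), against 2.74%. The median log2 fold change was -1.07 over the 48 genes and -0.01 over all genes tested. The genes are bulk measurements, in which fewer responding cells and less RNA per cell cannot be told apart.

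Both libraries labelled siNAT10 were below both siControl libraries in 39 of the 48 tested genes, where 35.4% of all genes tested did so, and above both in 4, where 34.1% did so. The groups overlapped in the remaining 5. The groups thus stood apart in most of these genes, at high and at low levels. The 33 genes that averaged 10 CPM or more in their higher group had a median log2 fold change of -0.95, with 28 called lower and 2 higher. Of the 15 tested genes under that level 10 were lower and 1 higher, with a median of -1.17.

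**Figure D1:**
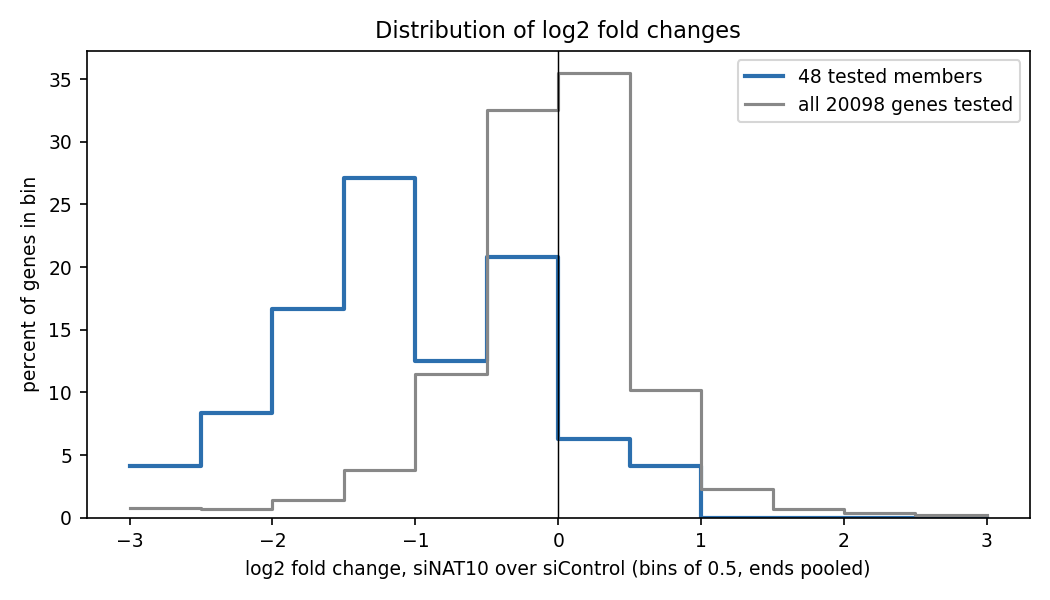
Percent of genes (y axis) in bins of 0.5 of log2 fold change (x axis, siNAT10 over siControl) for the tested interferon-stimulated effector genes (blue) and for all 20098 genes tested (grey), with values beyond the axis pooled in the end bins. The blue line peaks between -1.5 and -1, which holds 13 of the effector genes (27.1%) and 3.79% of all genes tested.

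Promoter stretches of 8 of these genes are printed to show the letters of the response element in genes chosen for holding it and in the genes with the highest log2 fold changes. Among members with a matched window, the first 6 have the lowest log2 fold changes of those that hold the ISRE core upstream of their start. The core is GAAA, 2 bases of any kind, then GAAA, on either strand. OASL, MX2, IFIT2, OAS2, GBP2, USP18 and PARP10, also called lower, had no matched window, so the core was not sought there. LAP3 and SP110 have the highest log2 fold changes of all members with a window. Each runs 5′ to 3′ on the gene's strand, ends at the base before the RefSeq transcription start, and has the core in capitals. Its sequence comes from RefSeq (GRCh38.p14). Positions are chr1:89065209-89065345 for GBP1 (minus strand), chr1:78649689-78649788 for IFI44 (plus strand), chr1:1013374-1013496 for ISG15 (plus strand), chr1:27672193-27672358 for IFI6 (minus strand), chr10:89327831-89327996 for IFIT3 (plus strand) and chr15:88638916-88639015 for ISG20 (plus strand). LAP3 lies at chr4:17577005-17577197 (plus strand) and SP110 at chr2:230225637-230225736 (minus strand).
GBP1: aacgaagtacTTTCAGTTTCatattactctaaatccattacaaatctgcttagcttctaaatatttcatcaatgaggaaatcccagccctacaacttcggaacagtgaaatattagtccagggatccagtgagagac
IFI44: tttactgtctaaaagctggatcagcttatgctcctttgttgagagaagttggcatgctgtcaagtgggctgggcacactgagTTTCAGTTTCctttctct
ISG15: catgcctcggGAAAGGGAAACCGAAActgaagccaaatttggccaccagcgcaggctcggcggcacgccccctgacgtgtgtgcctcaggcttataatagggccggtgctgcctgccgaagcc
IFI6: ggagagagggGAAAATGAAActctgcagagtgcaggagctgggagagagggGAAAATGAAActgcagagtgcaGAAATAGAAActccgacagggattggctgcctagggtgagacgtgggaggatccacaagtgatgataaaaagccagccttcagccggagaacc
IFIT3: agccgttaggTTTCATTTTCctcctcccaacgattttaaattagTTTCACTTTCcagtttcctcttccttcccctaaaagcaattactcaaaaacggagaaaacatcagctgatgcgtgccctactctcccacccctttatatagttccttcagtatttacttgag
ISG20: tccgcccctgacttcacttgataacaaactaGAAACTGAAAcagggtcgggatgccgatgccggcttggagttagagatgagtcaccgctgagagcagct
LAP3: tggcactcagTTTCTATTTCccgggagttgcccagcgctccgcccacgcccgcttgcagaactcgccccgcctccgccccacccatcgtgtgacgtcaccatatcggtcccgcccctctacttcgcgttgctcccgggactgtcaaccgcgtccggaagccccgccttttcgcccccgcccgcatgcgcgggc
SP110: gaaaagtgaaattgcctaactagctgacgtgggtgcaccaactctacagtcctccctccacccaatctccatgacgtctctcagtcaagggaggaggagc

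ISG15 held a pair of cores that share letters, starting 113 and 107 bases upstream of its start. IFI6 held 3 separate cores, 156, 115 and 93 bases upstream, and IFI44 held 1 core 18 bases upstream. RSAD2, the member with the lowest log2 fold change, and SP110 held none in their windows, and the LAP3 core lay 183 bases upstream. Over the windows from 250 bases before to 50 after the start, a window was matched for 42 of the 51 genes, and 27 of these (64.3%) held the core, against 3.57% of all 35116 windows. Among genes tested, the 27 with the core had a median log2 fold change of -1.19, with 22 called lower and 1 higher. The 12 without it had a median of -0.76, with 9 lower and 1 higher. Outside these genes, of 314 other tested genes that hold it, 19.4% were called lower and 27.4% higher, and of 11453 that do not, 23.3% were lower and 22.7% higher. The element TTCNNNGAA, which reads the same on both strands, binds STAT dimers and can share letters with the ISRE core, was in 13 of the 42 windows (31.0%) and in 7.66% of all windows. Its 13 genes had a median log2 fold change of -0.95, and the 26 tested genes without it had a median of -1.11.

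The proteins of the IFIT genes bind the caps and ends of foreign RNA and hinder its translation. All 4 genes were lower, against 20.7% of all genes tested. They lie side by side on chromosome 10, 89283694 to 89421001. IFIT2 was at 39.9 and 46.0 CPM in the libraries labelled siNAT10, against 186 and 164 CPM in the siControl libraries, and was 4.07-fold lower. Its log2 fold change was -2.03 ± 0.08 (adjusted p = 6.87e-13). IFIT3, which partners IFIT1 and IFIT2, was at 49.5 and 50.2 CPM under siNAT10 labels and 194 and 194 CPM in siControl (log2 fold change -1.96 ± 0.07, adjusted p = 8.08e-14). IFIT1, which recognises caps that lack ribose methylation, was at 31.4 and 39.1 CPM in the libraries labelled siNAT10, against 78.7 and 81.7 CPM in the siControl libraries (log2 fold change -1.19 ± 0.09, adjusted p = 2.96e-09). IFIT5 fell least, to 17.4 and 18.2 CPM in the libraries labelled siNAT10, against 25.3 and 22.5 CPM in the siControl libraries, with a log2 fold change of -0.43 ± 0.10 (adjusted p = 0.0017). Within the family the groups of IFIT2 and IFIT3 stood 4.07-fold and 3.89-fold apart and those of IFIT5 1.34-fold. IFIT2 shares exon bases with LIPA and RP11-149I23.3.

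**Figure D2:**
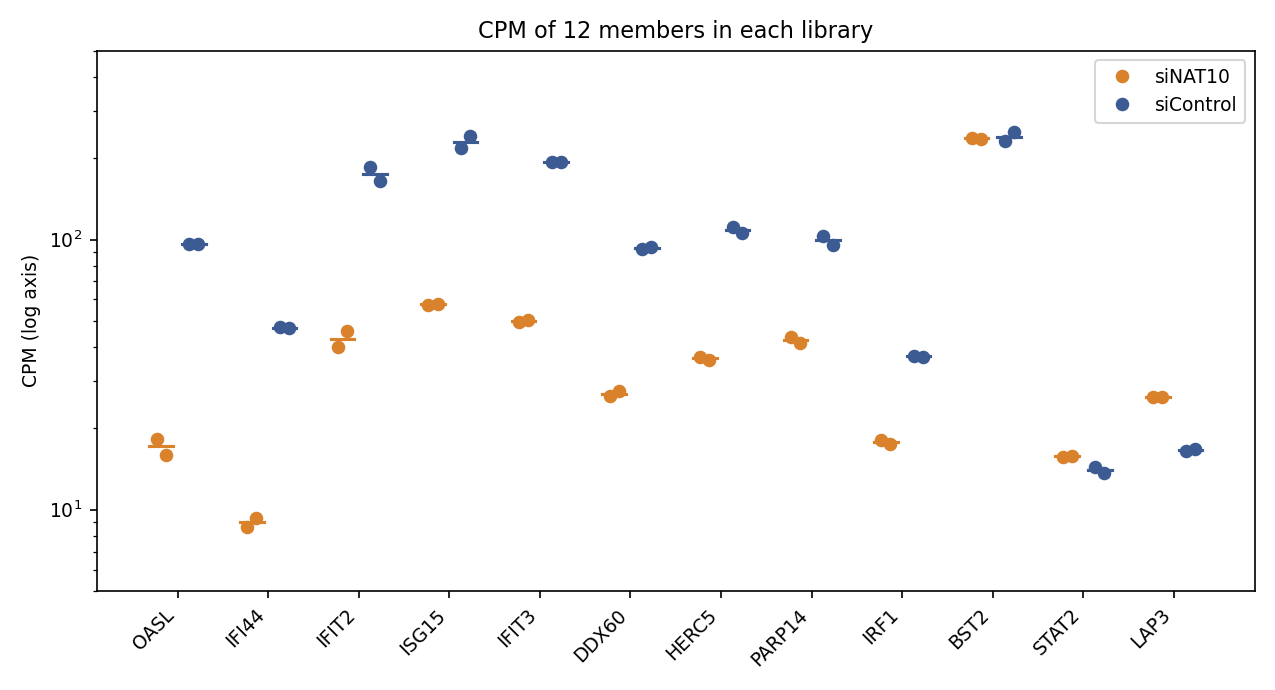
CPM on a log axis (y) of 12 interferon-stimulated effector genes (x) in each library, with siNAT10 libraries in orange left of siControl libraries in blue, points for libraries and bars for group means. OASL, IFI44, IFIT2, ISG15, IFIT3, DDX60, HERC5, PARP14 and IRF1 are lower in both libraries labelled siNAT10, BST2 overlaps between groups, STAT2 did not pass the test, and LAP3 is higher.

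The OAS family, ISG20 and ZC3HAV1, grouped here around RNA decay, were lower in 6 of 6, against 20.7% of all genes tested. The synthetases OAS1, OAS2 and OAS3 make the oligoadenylates that switch on RNase L, and OASL, a relative without synthetase activity, enhances signalling by RIG-I. OASL was at 18.3 and 16.0 CPM in the libraries labelled siNAT10, against 96.4 and 96.1 CPM in the siControl libraries, which was 5.62-fold lower (log2 fold change -2.49 ± 0.08, adjusted p = 3.95e-14). ISG20, an RNA exonuclease, was at 3.49 and 2.94 CPM in the libraries labelled siNAT10, against 11.4 and 12.7 CPM in the siControl libraries (log2 fold change -1.89 ± 0.15, adjusted p = 7.52e-09). The zinc finger protein gene ZC3HAV1, whose product ZAP binds CpG-rich RNA, was at 67.9 and 63.7 CPM under siNAT10 labels and 128 and 127 CPM in siControl. Its log2 fold change was -0.95 ± 0.07 (adjusted p = 2.07e-09). In none of these did the groups overlap, and both libraries labelled siNAT10 lay below both siControl libraries in 35.4% of all genes tested. The adjacent genes OAS1, OAS3 and OAS2 (chromosome 12, 112906777 to 113011723) spanned log2 fold changes from -1.89 for OAS2 to -0.80 for OAS3. OAS3, the most abundant of them in CPM, was at 43.0 and 44.0 CPM in the libraries labelled siNAT10, against 78.8 and 72.5 CPM in the siControl libraries, with adjusted p = 5.93e-08. OAS1 was at 12.96 and 15.4 CPM under siNAT10 labels and 29.9 and 30.3 CPM in siControl (-1.09, adjusted p = 6.11e-08) and shares bases with the antisense row RP1-71H24.1. OAS2 rested on 10 and 10 counts in the libraries labelled siNAT10, against 42 and 46 in siControl, with a log2 fold change of -1.89 ± 0.42 (adjusted p = 0.0013).

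Of the dynamin-like and guanylate-binding GTPase genes, 4 of 5 were lower, against 20.7% of all genes tested. MX1, which traps viral nucleocapsids, was at 1.501 and 0.846 CPM in the libraries labelled siNAT10, against 2.57 and 3.74 CPM in the siControl libraries (log2 fold change -1.40 ± 0.28, adjusted p = 5.34e-04), and it shares bases with the antisense row AP001610.5. Its neighbour MX2, known for blocking nuclear import of HIV, had 4 and 2 counts in the libraries labelled siNAT10, against 18 and 14 in siControl. The MX2 call (-2.15 ± 0.70, adjusted p = 0.0188) was lost when any 1 library was left out, with adjusted p from 0.0714 to 0.157. Guanylate-binding proteins attack the membranes around intracellular pathogens. GBP2 was at 3.87 and 5.15 CPM in the libraries labelled siNAT10, against 14.8 and 14.6 CPM in the siControl libraries, with a log2 fold change of -1.72 ± 0.14 (adjusted p = 1.33e-08), and overlaps GBP7. GBP1 had 6 and 6 counts in the libraries labelled siNAT10, against 48 and 35 in siControl, with -2.53 ± 0.48 on the log2 scale (adjusted p = 3.00e-04). GBP3 did not pass the test and was at 13.7 and 12.4 CPM in the libraries labelled siNAT10, against 12.7 and 11.6 CPM in the siControl libraries, with overlapping groups, a log2 fold change of 0.10 ± 0.11 (adjusted p = 0.519) and a 95% interval from -0.14 to 0.34. The GBP3 row overlaps a Y_RNA row. All 3 GBP genes lie within chromosome 1, 89006666 to 89150456, and reads of such paralogs may be shared.

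In the ISG15 conjugation system the modifier, its main human ligase and its protease were lower. The activating enzyme gene was not called, and the conjugating enzyme gene was not tested. ISG15, a ubiquitin-like protein attached to newly made proteins, was at 57.3 and 58.0 CPM in the libraries labelled siNAT10, against 219 and 241 CPM in the siControl libraries, or 3.99-fold lower (log2 fold change -1.996 ± 0.07, adjusted p = 1.29e-13). HERC5, the main human ligase for ISG15, was at 36.7 and 35.9 CPM in the libraries labelled siNAT10, against 111 and 105 CPM in the siControl libraries (log2 fold change -1.57 ± 0.07, adjusted p = 3.64e-12). USP18 removes ISG15 from proteins and also dampens signalling at the receptor chain IFNAR2. It was at 11.1 and 10.9 CPM in the libraries labelled siNAT10, against 23.1 and 23.3 CPM in the siControl libraries, with a log2 fold change of -1.08 ± 0.10 (adjusted p = 7.24e-08). HERC6, next to HERC5 on chromosome 4 and an ISG15 ligase in mouse, was at 3.52 and 3.35 CPM under siNAT10 labels and 7.58 and 6.62 CPM in siControl (log2 fold change -1.05 ± 0.16, adjusted p = 3.86e-05). In each of these 4 genes the groups stood apart by more than 2-fold. The activating enzyme gene UBA7 was barely detected, at 8 and 18 counts in the libraries labelled siNAT10, against 24 and 16 in siControl. It was not called (-0.37 ± 0.53, adjusted p = 0.618), and its log2 fold change turned to 0.20 without siNAT10 replicate 1. The conjugating enzyme gene UBE2L6 was not tested, with 0 and 0 counts in the libraries labelled siNAT10, against 2 and 4 in siControl, where a floor of 3 counts is 0.0825 to 0.0974 CPM. The ISG15 row overlaps RP11-54O7.10.

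**Figure D3:**
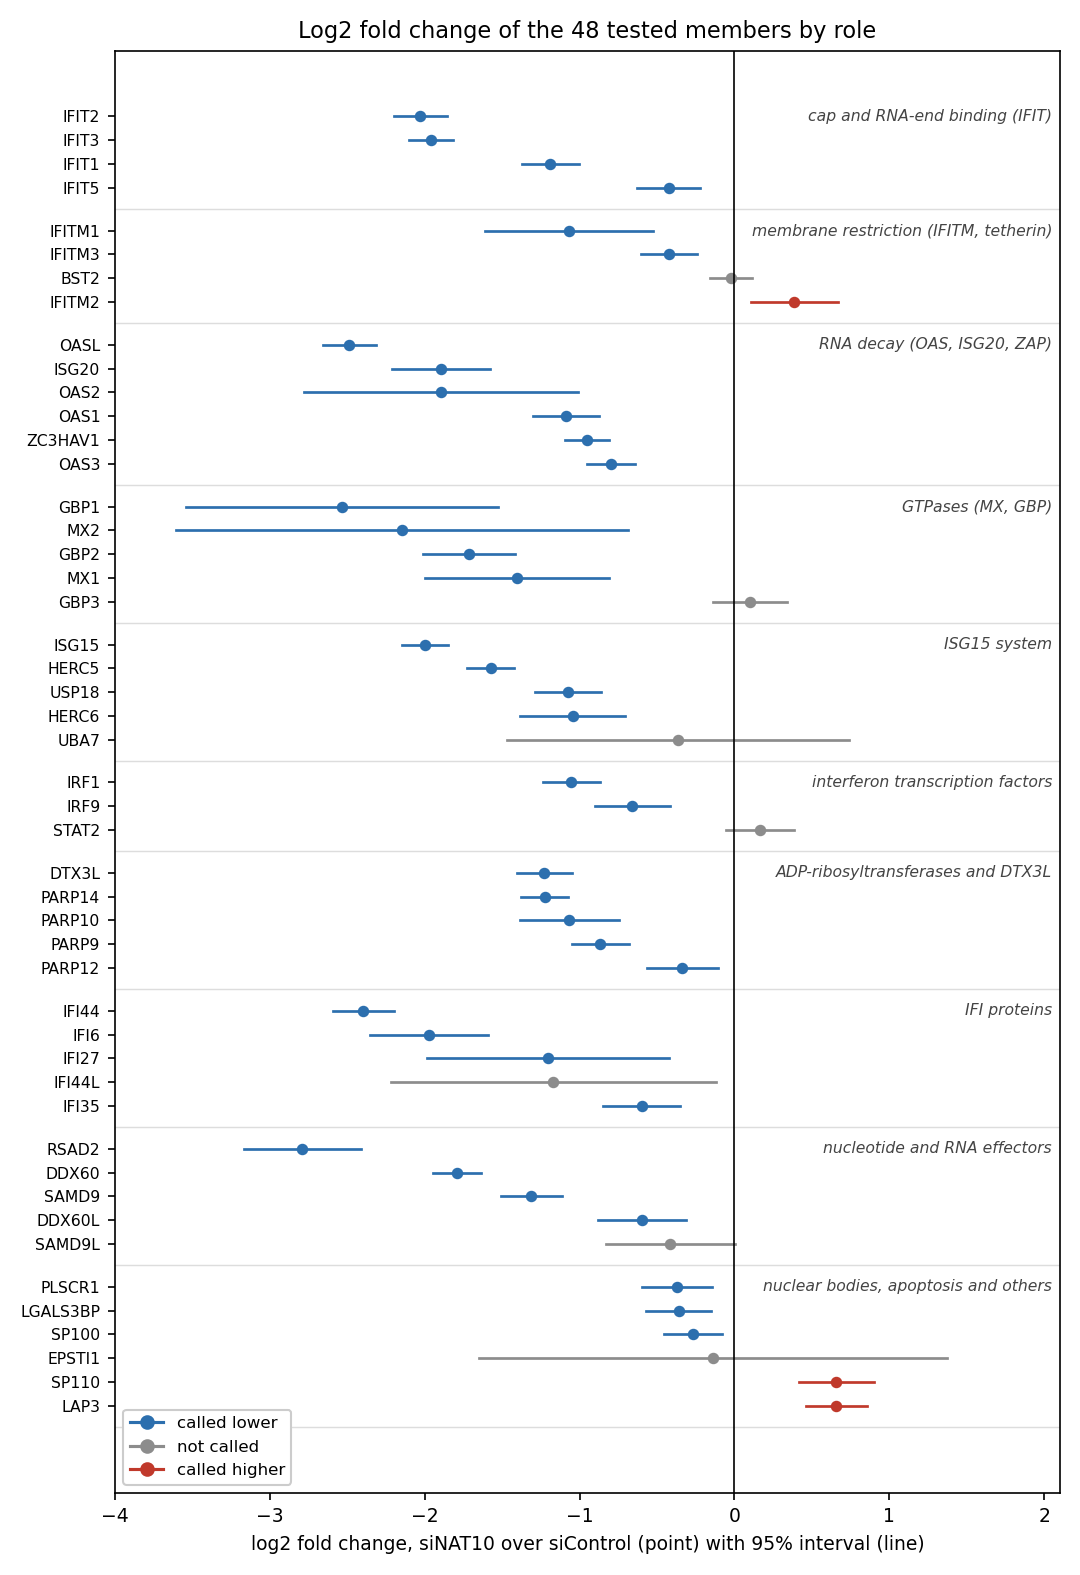
Log2 fold change (x axis, siNAT10 over siControl; point) with its 95% interval (line) for the 48 tested interferon-stimulated effector genes, in rows by role; blue is called lower, grey not called, red called higher. Points run from -2.79 for RSAD2 to 0.66 for LAP3 and SP110, and 43 of 48 lie left of 0.

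The ADP-ribosyltransferase genes and DTX3L were lower in 5 of 5, against 20.7% of all genes tested. PARP14, a mono-ADP-ribosyltransferase, was at 43.5 and 41.3 CPM in the libraries labelled siNAT10, against 103 and 95.6 CPM in the siControl libraries (log2 fold change -1.22 ± 0.07, adjusted p = 1.69e-10). DTX3L, a ubiquitin ligase that works in a complex with PARP9, was at 24.4 and 26.7 CPM in the libraries labelled siNAT10, against 56.4 and 63.1 CPM in the siControl libraries. PARP9 was at 26.2 and 28.3 CPM under siNAT10 labels and 46.4 and 53.0 CPM in siControl. The pair lies head to head (chromosome 3, 122527924 to 122575203), their rows overlap, and they had log2 fold changes of -1.23 ± 0.08 for DTX3L and -0.87 ± 0.09 for PARP9 (adjusted p = 1.19e-09 and adjusted p = 1.90e-07). PARP10 was lower at a low level, 4.10 and 3.76 CPM in the libraries labelled siNAT10, against 7.84 and 8.64 CPM in the siControl libraries (-1.07 ± 0.15, adjusted p = 1.47e-05), and its row overlaps GRINA and SPATC1. PARP12 changed least, with 12.5 and 14.7 CPM in the libraries labelled siNAT10, against 17.3 and 16.9 CPM in the siControl libraries (log2 fold change -0.34 ± 0.11, adjusted p = 0.0181). The PARP12 call was lost without siNAT10 replicate 1 (-0.22, adjusted p = 0.229) and in DESeq2 (adjusted p = 0.107).

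Among genes named only as interferon-induced, 4 of 5 were lower, against 20.7% of all genes tested. IFI44 was at 8.63 and 9.31 CPM in the libraries labelled siNAT10, against 47.4 and 46.9 CPM in the siControl libraries, which was 5.26-fold lower (log2 fold change -2.40 ± 0.09, adjusted p = 4.88e-13). IFI6, which encodes a small membrane protein that protects cells from apoptosis, was at 2.02 and 1.66 CPM in the libraries labelled siNAT10, against 7.27 and 7.27 CPM in the siControl libraries (log2 fold change -1.97 ± 0.18, adjusted p = 6.19e-08). IFI35 was at 11.6 and 13.5 CPM under siNAT10 labels and 17.0 and 20.99 CPM in siControl (log2 fold change -0.60 ± 0.12, adjusted p = 4.64e-04). These 3 did not overlap between groups, nor did IFI27 and IFI44L. Both libraries labelled siNAT10 lay below both siControl libraries in 35.4% of all genes tested. IFI27 was lower at 1.10 and 0.372 CPM in the libraries labelled siNAT10, against 1.94 and 1.53 CPM in the siControl libraries, with a log2 fold change of -1.20 ± 0.37 (adjusted p = 0.0145). IFI27 was at -0.66 without siNAT10 replicate 2 (adjusted p = 0.167) and at -2.21 without siNAT10 replicate 1, and DESeq2 did not call it (adjusted p = 0.10). IFI44L, beside IFI44 (chromosome 1, 78619922 to 78664078), had 8 and 10 counts in the libraries labelled siNAT10, against 24 and 24 in siControl. Its log2 fold change of -1.17 ± 0.50 (adjusted p = 0.0714) missed the threshold, although both libraries labelled siNAT10 lay below both siControl libraries, and it passed with libraries scaled by their totals (adjusted p = 0.0478).

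RSAD2 had the lowest log2 fold change of all members. It encodes viperin, an enzyme that makes a chain-terminating nucleotide, and was at 1.44 and 1.35 CPM in the libraries labelled siNAT10, against 10.2 and 9.18 CPM in the siControl libraries, or 6.94-fold lower (log2 fold change -2.79 ± 0.18, adjusted p = 4.55e-10). CMPK2, the divergent neighbour that supplies the nucleotide for viperin, was not tested, at 6 and 2 counts in the libraries labelled siNAT10, against 10 and 16 in siControl, and its row overlaps that of RSAD2. DDX60, a helicase linked to RIG-I signalling, was at 26.3 and 27.4 CPM in the libraries labelled siNAT10, against 92.01 and 93.9 CPM in the siControl libraries (log2 fold change -1.79 ± 0.07, adjusted p = 8.36e-13), while its neighbour DDX60L was at 13.8 and 9.95 CPM under siNAT10 labels and 19.7 and 16.5 CPM in siControl (log2 fold change -0.60 ± 0.14, adjusted p = 0.00172, or -0.39 without siNAT10 replicate 2). SAMD9, which restricts poxviruses and slows translation, was at 15.8 and 14.8 CPM in the libraries labelled siNAT10, against 39.9 and 36.2 CPM in the siControl libraries (log2 fold change -1.31 ± 0.09, adjusted p = 1.78e-09). SAMD9L, its neighbour and close relative, was at 4.16 and 2.94 CPM in the libraries labelled siNAT10, against 5.40 and 4.12 CPM in the siControl libraries, and the groups overlapped. SAMD9L was not called (-0.41 ± 0.20, adjusted p = 0.107), but was called lower without siNAT10 replicate 1 (-0.69, adjusted p = 0.0226), without siControl replicate 2 (-0.60, adjusted p = 0.023) and with libraries scaled by their totals (adjusted p = 0.0445).

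Of 4 membrane restriction factors, 2 were lower and 1 was called higher, against 20.7% and 19.7% of all genes tested. IFITM proteins block fusion of viruses with cell membranes. IFITM3 was at 36.9 and 32.2 CPM in the libraries labelled siNAT10, against 44.1 and 48.7 CPM in the siControl libraries (log2 fold change -0.42 ± 0.09, adjusted p = 5.92e-04), and IFITM1 was at 2.19 and 1.29 CPM in the libraries labelled siNAT10, against 4.43 and 2.96 CPM in the siControl libraries (log2 fold change -1.07 ± 0.26, adjusted p = 0.00265). IFITM2 was called higher, at 9.38 and 8.33 CPM in the libraries labelled siNAT10, against 6.85 and 6.73 CPM in the siControl libraries (log2 fold change 0.39 ± 0.13, adjusted p = 0.0283). That call was lost in 6 of 13 alternatives, among them without siNAT10 replicate 1 (adjusted p = 0.201), without siControl replicate 1 (adjusted p = 0.0573), without siControl replicate 2 (adjusted p = 0.0791) and in DESeq2 (adjusted p = 0.164). The rows of IFITM1 and IFITM2 overlap, that of IFITM3 overlaps RP11-326C3.12, and the 3 genes are close paralogs (chromosome 11, 307631 to 327537), so their reads may be shared. BST2, or tetherin, which holds budding virions at the cell surface, was among the most abundant members and was not lower, at 238 and 236 CPM in the libraries labelled siNAT10, against 232 and 249.8 CPM in the siControl libraries. Its groups overlapped, and its log2 fold change was -0.02 ± 0.07 (adjusted p = 0.818) with a 95% interval from -0.16 to 0.11. The BST2 window holds a pair of ISRE cores that share letters, 130 and 124 bases upstream of the start.

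Of the 6 tested among the remaining members, 3 were lower and 2 higher, all by less than 2-fold. Over all genes tested, the shares were 20.7% lower and 19.7% higher. PLSCR1, a membrane protein that hinders viral entry, was at 11.9 and 13.1 CPM under siNAT10 labels and 15.8 and 16.5 CPM in siControl (log2 fold change -0.37 ± 0.11, adjusted p = 0.00955). LGALS3BP, a secreted glycoprotein that binds galectins, was at 23.7 and 19.9 CPM under siNAT10 labels and 26.5 and 29.6 CPM in siControl (log2 fold change -0.36 ± 0.10, adjusted p = 0.00746). SP100, a scaffold of nuclear bodies, was at 25.9 and 30.3 CPM under siNAT10 labels and 33.9 and 33.7 CPM in siControl (log2 fold change -0.27 ± 0.09, adjusted p = 0.0229). Each of the 3 calls was lost without 1 library: those of PLSCR1 (-0.30, adjusted p = 0.103) and SP100 (-0.15, adjusted p = 0.325) were lost without siNAT10 replicate 1, and that of LGALS3BP (-0.24, adjusted p = 0.137) without siNAT10 replicate 2. DESeq2 did not call PLSCR1 (adjusted p = 0.0701) or SP100 (adjusted p = 0.0922). SP110, a relative of SP100, was higher, at 13.9 and 15.1 CPM in the libraries labelled siNAT10, against 8.95 and 9.42 CPM in the siControl libraries (log2 fold change 0.66 ± 0.11, adjusted p = 1.32e-04), with SP140 and 2 more rows overlapping it, as HMGB1P3 and AC010149.4 overlap SP100. LAP3, a leucine aminopeptidase, was higher too, at 26.2 and 26.2 CPM in the libraries labelled siNAT10, against 16.4 and 16.7 CPM in the siControl libraries (log2 fold change 0.66 ± 0.09, adjusted p = 1.21e-05). Both calls held in each fit that tested them other than the test against a 1.5-fold change. EPSTI1 was not called (-0.14 ± 0.72, adjusted p = 0.90), at 10 and 4 counts in the libraries labelled siNAT10, against 14 and 4 in siControl. XAF1, a promoter of apoptosis, was not tested, at 2 and 0 counts in the libraries labelled siNAT10, against 2 and 4 in siControl, and its row overlaps RP11-609D21.3.

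Levels between genes were compared per length, in TPM computed from the counts and the deposited gene lengths. BST2 was at 615 and 588 TPM in the libraries labelled siNAT10, and at 680.1 and 715 TPM in siControl. ISG15 was at 176 and 171 TPM in the libraries labelled siNAT10, and at 763 and 819 TPM in siControl. BST2 was thus above ISG15 in both libraries labelled siNAT10 and below it in both siControl libraries. IFITM3 was at 79.1 and 66.6 TPM in the libraries labelled siNAT10 and at 108 and 116 TPM in siControl. IFIT3 was at 54.2 and 53.0 TPM in the libraries labelled siNAT10 and at 242 and 235 TPM in siControl. IFITM3 was above IFIT3 in both libraries labelled siNAT10 and below it in both siControl libraries. Among the lowest in siControl, MX2 and XAF1 were at 0.0200 and 0.0126 TPM on average in the libraries labelled siNAT10 and at 0.106 and 0.0391 TPM in siControl.

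Neighbouring members differed in the size of their change. Of the 51 genes, 27 lay in 11 groups of neighbours no more than 100000 bases apart, and 22 of the 26 tested there were lower, against 16 of the 22 tested outside such groups. The difference between neighbours and other members was not tested, and over all genes tested 20.7% were called lower. The rows of IFITM1 and IFITM2, and those of PARP9 and DTX3L, overlap, so their calls may share reads. In the IFIT group log2 fold changes ran from -2.03 to -0.43, in the HERC5 and HERC6 group from -1.57 to -1.05, and in the DDX60 and DDX60L group from -1.79 to -0.60. The 4 tested neighbours that were not called lower were IFITM2, GBP3, IFI44L and SAMD9L, each beside at least 1 gene that was.

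Of 3 transcription factor genes among the members, 2 were lower. IRF1, a factor that acts at ISRE-like sequences, was at 18.1 and 17.5 CPM in the libraries labelled siNAT10, against 37.1 and 36.9 CPM in the siControl libraries (log2 fold change -1.05 ± 0.09, adjusted p = 1.53e-08), with RP11-89G4.1 overlapping it. IRF9, the DNA-binding part of the STAT complex, was at 9.09 and 10.2 CPM in the libraries labelled siNAT10, against 14.6 and 15.8 CPM in the siControl libraries (log2 fold change -0.66 ± 0.12, adjusted p = 1.34e-04), with an RP11 row overlapping it. STAT2 was not called, at 15.7 and 15.8 CPM in the libraries labelled siNAT10, against 14.4 and 13.7 CPM in the siControl libraries (0.17 ± 0.10, adjusted p = 0.221), with both libraries labelled siNAT10 slightly above both siControl libraries and a 95% interval from -0.05 to 0.38. Of the 9 tested genes among JAK kinases, STATs and IRFs other than members, 1 was lower and none higher in edgeR. Of all genes tested, edgeR called 20.7% lower and 19.7% higher. At an unadjusted p under 0.05 in edgeR 1 of the 9 was higher, and DESeq2 called none of the 9 in either direction. The lower gene was IRF7, the amplifier of interferon production, at 2.050 and 1.62 CPM in the libraries labelled siNAT10, against 2.75 and 3.39 CPM in the siControl libraries (log2 fold change -0.73 ± 0.23, adjusted p = 0.0156). The IRF7 call was lost without siNAT10 replicate 2 (adjusted p = 0.11) and without siControl replicate 2 (adjusted p = 0.131). The kinase gene JAK1 was at 61.1 and 62.7 CPM under siNAT10 labels and 62.8 and 55.8 CPM in siControl (log2 fold change 0.06 ± 0.08, adjusted p = 0.552), and TYK2 at 19.3 and 20.3 CPM under siNAT10 labels and 19.2 and 19.4 CPM in siControl (0.03 ± 0.10, adjusted p = 0.804). IRF3, which acts before interferon is made, was at 53.2 and 50.2 CPM under siNAT10 labels and 55.3 and 60.2 CPM in siControl (-0.16 ± 0.08, adjusted p = 0.106). The row of IRF3 overlaps that of BCL2L12, and the row of JAK1 overlaps that of RAVER2.

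Among interferon genes, only IFNL1 had enough counts for a test. IFNL1, a type III interferon, had 2 and 0 counts in the libraries labelled siNAT10, against 42 and 34 in siControl. As a ratio of summed counts it was 32.4-fold lower in the libraries labelled siNAT10, with a 95% exact counting interval from 8.67-fold to 272-fold (edgeR adjusted p = 2.51e-05). If both mates of a pair were counted, that interval is too narrow, and on halved counts of 1 and 38, an alternative chosen after the data were seen, it ran from 5.47-fold to 1313-fold. The fitted log2 fold change was -4.87, and -4.05 without siNAT10 replicate 2. Without siNAT10 replicate 1, where the remaining library of that group held 0 counts, it was -8.14, a value that depends on the prior count and is no bound. Its relatives IFNL2 (0 and 2 counts in the libraries labelled siNAT10, against 13 and 6 in siControl) and IFNL3 (0 and 2 counts in the libraries labelled siNAT10, against 10 and 17 in siControl) were not tested. IFNB1, the first type I interferon made by most cells, had 0 and 2 counts in the libraries labelled siNAT10, against 6 and 4 in siControl and was not tested. Of 6 receptor genes, 4 were lower and none higher, against 20.7% and 19.7% of all genes tested. None of the 6 was higher at an unadjusted p under 0.05 in edgeR, nor in DESeq2 or limma-voom. IFNLR1, the chain specific to type III interferon, was at 4.39 and 5.38 CPM in the libraries labelled siNAT10, against 8.002 and 7.70 CPM in the siControl libraries (log2 fold change -0.69 ± 0.15, adjusted p = 0.00117). IFNAR2 was at 24.5 and 25.3 CPM under siNAT10 labels and 35.2 and 33.6 CPM in siControl (-0.47 ± 0.09, adjusted p = 2.03e-04), IFNGR1 at 12.5 and 13.9 CPM under siNAT10 labels and 18.4 and 20.3 CPM in siControl (-0.55 ± 0.11, adjusted p = 3.31e-04), and IL10RB at 7.85 and 7.95 CPM under siNAT10 labels and 9.68 and 10.52 CPM in siControl (-0.35 ± 0.13, adjusted p = 0.0316). The partner chain IFNAR1 did not pass (0.09 ± 0.10, adjusted p = 0.498). IFNAR2 and IL10RB both overlap AP000295.9. IL10RB was not called by DESeq2 (adjusted p = 0.181), nor without siNAT10 replicate 1, siNAT10 replicate 2 or siControl replicate 2 (adjusted p from 0.0924 to 0.162).

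**Figure D4:**
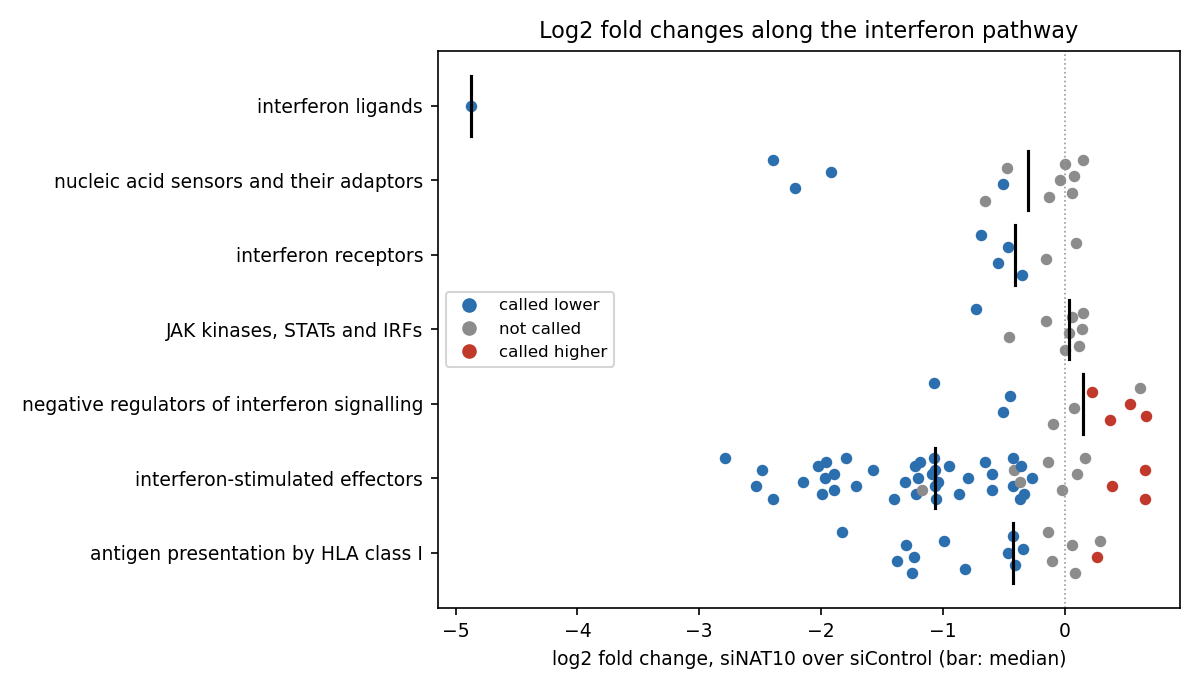
Log2 fold change (x axis, siNAT10 over siControl) of each tested gene (points) in lists along the interferon pathway (y axis), with a bar at each list's median; blue is called lower, grey not called, red called higher. The effector genes have a median of -1.07, the JAK kinases, STATs and IRFs lie around 0.03, and the single interferon gene tested, IFNL1 at -4.87, rests on 2 counts in the libraries labelled siNAT10.

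Sensors and feedback genes held both lower genes and genes that did not pass the test, and the feedback genes held higher ones as well. Of 12 tested nucleic acid sensors and adaptors, 4 were lower and none higher, against 20.7% and 19.7% of all genes tested. None of the 12 was higher at an unadjusted p under 0.05 in edgeR, nor in DESeq2 or limma-voom. DDX58, the gene of RIG-I, was at 11.4 and 12.1 CPM in the libraries labelled siNAT10, against 64.2 and 58.9 CPM in the siControl libraries (log2 fold change -2.39 ± 0.09, adjusted p = 2.47e-13). IFIH1, the gene of the RNA sensor MDA5, was at 4.76 and 6.87 CPM in the libraries labelled siNAT10, against 28.6 and 25.1 CPM in the siControl libraries (log2 fold change -2.22 ± 0.14, adjusted p = 2.53e-10). DHX58, a modulator of both, was at 1.56 and 1.62 CPM under siNAT10 labels and 5.80 and 6.24 CPM in siControl (-1.92 ± 0.19, adjusted p = 2.06e-07). MAVS, their mitochondrial adaptor, was at 29.6 and 28.3 CPM under siNAT10 labels and 42.0 and 40.3 CPM in siControl (-0.51 ± 0.08, adjusted p = 5.44e-05). The interferon-induced genes EIF2AK2, whose row overlaps GPATCH11 and AC007899.3, and ADAR were not called, with log2 fold changes of -0.13 ± 0.07 and 0.08 ± 0.07 (adjusted p = 0.139 and adjusted p = 0.375). Of 10 negative regulators of interferon signalling, 3 were lower and 4 higher, where 20.7% of all genes tested were lower and 19.7% higher. USP18 counts here as well, and SOCS3 (-0.51 ± 0.09, adjusted p = 1.09e-04) and CISH (-0.45 ± 0.14, adjusted p = 0.0174) were the other two lower. The phosphatase genes PTPN11 (0.54 ± 0.07, adjusted p = 3.07e-06), PTPN6 (0.67 ± 0.18, adjusted p = 0.00655) and PTPN2 (0.23 ± 0.08, adjusted p = 0.0292) and the SUMO ligase gene PIAS1 (0.37 ± 0.09, adjusted p = 0.0033) were higher. Of these, PTPN11 overlaps RPL6, PIAS1 overlaps CALML4 and CISH overlaps MAPKAPK3. DESeq2 did not call CISH, PTPN2 or PTPN6. Calls were lost for CISH without siNAT10 replicate 2 (adjusted p = 0.131) or siControl replicate 2 (adjusted p = 0.0713), for PTPN6 without siControl replicate 1 (adjusted p = 0.0719), and for PTPN2 without siNAT10 replicate 1, siNAT10 replicate 2 or siControl replicate 2 (adjusted p from 0.065 to 0.172) and with libraries scaled by their totals (0.11, adjusted p = 0.277).

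Antigen presentation by HLA class I was lower in 11 of 17 tested genes and higher in 1, with a median log2 fold change of -0.43. The shares over all genes tested were 20.7% lower and 19.7% higher. HLA-F was at 25.5 and 25.4 CPM in the libraries labelled siNAT10, against 87.2 and 94.1 CPM in the siControl libraries (log2 fold change -1.83 ± 0.08, adjusted p = 9.32e-13). HLA-C was at 427 and 412 CPM under siNAT10 labels and 1009 and 1173 CPM in siControl (-1.38 ± 0.07, adjusted p = 2.61e-11), and HLA-B at 342 and 339.9 CPM under siNAT10 labels and 792 and 890.1 CPM in siControl (-1.30 ± 0.07, adjusted p = 2.61e-11). HLA genes are close paralogs and vary between genomes, so their reads may be shared, and HLA-B and HLA-F also overlap pseudogene or antisense rows. The proteasome activator gene PSME2 was the 1 higher gene (0.26 ± 0.07, adjusted p = 0.00761), a call lost without siNAT10 replicate 2 (adjusted p = 0.159) and with libraries scaled by their totals (0.15, adjusted p = 0.115), and its row overlaps RNF31. No test set these lists against the effector genes.

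Markers of other cells were low. Of 6 leukocyte markers with a row, 3 were tested, and 1 of these was lower, against 20.7% of all genes tested. PTPRC had 2 and 0 counts in the libraries labelled siNAT10, against 4 and 2 in siControl, ITGAM had 2 and 2 counts in the libraries labelled siNAT10, against 0 and 2 in siControl, and MS4A1 had 4 and 2 counts in the libraries labelled siNAT10, against 2 and 2 in siControl. The summed level of the 6 was 3.46 and 2.30 CPM in the libraries labelled siNAT10 and 5.43 and 6.11 CPM in siControl. Of 8 fibroblast and endothelial markers 7 were tested, 2 of them lower and 2 higher, against 20.7% and 19.7% of all genes tested. The 8 markers summed to 35.0 and 34.3 CPM in the libraries labelled siNAT10 and to 36.7 and 40.7 CPM in siControl. Among them VWF was higher (3.04 ± 0.56, adjusted p = 2.31e-04) and PECAM1 lower (-2.29 ± 0.49, adjusted p = 8.26e-04), both at low levels. The part of any of these cells in the results was not tested.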

How the data were processed

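The authors deposited raw counts per gene; tools named in the submitters' processing notes are fastp 0.23.4, STAR 2.5.3a and featureCounts, with GRCh38. Annotation, strand setting and removal of PCR copies are not stated there. Of counts from 1 to 50, between 72.0% and 73.5% were even, so mates were probably counted singly. Overlapping rows may share reads, and most are named beside values. Per the labels' protocols, RNA came from TRIzol extraction.

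Fits used R 4.3.3 and edgeR 4.0.16 (filterByExpr, TMM, robust glmQLFit, glmQLFTest, group only, 2 residual degrees of freedom), two-sided, Benjamini-Hochberg adjusted over 20098 genes with threshold 0.05. Adjusted p-values without a tool name come from it. Each standard error is the log2 fold change over the root of its F statistic. DESeq2 1.42.0 and limma 3.58.1 were alternatives. The fit was tested on simulated data, but no outcome is given here, so its error rate with 2 libraries per group is not shown. Counting intervals cover counting error only. Libraries of a group differed beyond sampling noise (chi-square per degree of freedom 4.77 for siNAT10, 7.94 for siControl, where mates counted singly would give about 2 without any difference).

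The 51 members and all lists were chosen with earlier results of these data known, and no list was tested. Named by rule were, per role group, up to 4 called members with the smallest adjusted p, members called higher, not called or not tested, and up to 4 called genes of each other list. Other genes were named with their values known. List genes without a row were not analysed here. A few listed genes are not reported here. Promoters (250 bases before to 50 after the start) are from RefSeq GRCh38.p14, matched by symbol or synonym.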

Additional observations from a re-analysis of the deposited data

How the results depend on the processing

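In 14 alternatives, 26 of the 38 effector genes called lower kept call and direction wherever tested. Without rows that overlap another, 30 members were tested, 24 lower, 16 of these at least 2-fold, 1 higher, with a median log2 fold change of -1.13 and 15 calls in the other pathway lists (28 otherwise). The test against a 1.5-fold change left 26 members lower, none higher (edgeR glmTreat, also 0 higher at an unadjusted p under 0.05; tests against no change called 2 higher in DESeq2 and 3 in limma-voom at an adjusted p) and 11 calls in the other lists, since it asks for a larger change. With libraries scaled by their totals the median of all genes was at -0.12 and that of the members at -1.18, with 40 lower and 2 higher. Leaving out 1 library gave 35 to 38 members lower, 2 to 3 higher, 23 to 24 at least 2-fold lower, a median from -1.08 to -1.01 (-1.01 without siNAT10 replicate 2) and 24 to 29 calls in the other lists. DESeq2 called 33 lower. Over all genes, 4169 lower and 3951 higher calls stood against 2771 and 2840 in DESeq2, 940 and 478 in the 1.5-fold test, and 2040 and 1894 without overlapping rows, where 9865 genes were tested.

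Directions reversed in genes that were not called: GBP3 (-0.012) and NAT10 (-0.024) with totals alone, and EPSTI1 in limma-voom (0.023). Leaving out 1 library gave EPSTI1 from -0.80 to 0.98, UBA7 from -1.19 to 0.20 and BST2 from -0.077 to 0.033, with EPSTI1 at 0.27 without siNAT10 replicate 2. The cause of these changes was not tested. Replicate numbers are shared between groups without a stated batch, and deviations of same-numbered libraries correlated at -0.03 across 20098 genes and at 0.25 across the tested members. With the replicate number as a block, 38 members were lower, 3 higher and 26 at least 2-fold lower, with a median of -1.07 and 28 calls in the other lists. With halved counts, 37 members were lower and 3 higher.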
